A study of Homo sapiens with 8 samples.

Results

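H3K36me2 regions of neural progenitor cells were compared between a control library and a library from cells carrying sh1, a hairpin against KDM2A. The members are all regions on chromosomes 1 to 22 in the authors' lists for these libraries. They number 37882 of the 565409 regions and peaks listed for the whole series, with 19017 in the control and 18865 in sh1. The series has 8 libraries, and the 2 described here were made by chromatin immunoprecipitation and sequencing (ChIP-seq) with a GeneTex antibody against H3K36me2. Both came from H9, an established line of human embryonic stem cells. The stem cells received either a control lentivirus (NC) or a lentivirus expressing the short hairpin RNA sh1. The submitters chose this hairpin sequence for its knockdown effect among several tried. Cells were selected with puromycin and then turned into neural progenitor cells. With 1 library a side there is no replicate error, and the groups were compared by description alone, without a test. Intervals given below are 95% intervals that cover counting error only. The lists hold no RNA or protein measure, so neither the depletion of KDM2A nor the progenitor identity of the cells was checked here.

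Dimethylation of lysine 36 of histone H3 is placed mainly by the NSD enzymes and ASH1L, and it lies in broad domains over gene bodies and intergenic sequence. SETD2 makes the trimethylated form over transcribed genes. KDM2A is a demethylase that takes methyl groups off this lysine and that binds unmethylated CG-rich DNA through a zinc finger. The mark is known to restrain Polycomb methylation of lysine 27 and to attract the DNA methyltransferase DNMT3A.

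A region is a stretch that the authors' caller found enriched over input, on a grid of 200 bp. Its fold is the deposited ratio of immunoprecipitate (IP) to background. The median region held 163 IP and 99 input reads in the control, and 151 and 89 in sh1. At these counts the fold of a median region had an interval of 1.25 to 2.10 in the control and 1.28 to 2.21 in sh1. A base outside a list fell below the authors' calling limit and was not measured as 0. KDM2A itself, the targeted gene (gene 22992, chromosome 11, 67119263 to 67258082), had no called sequence in either list. Its nearest region lay 11.9 kb away in the control and 331 kb away in sh1.

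Starts of genes inside called sequence had fewer CG dinucleotides at the median than other starts, and 5 promoters are shown, 4 from called sequence with few or many CG and that of KDM2A. Each is the 250 bases before a RefSeq gene start in GRCh38.p14, written from 5′ to 3′ on the gene's own strand, with every CG in capitals. CMKLR2 (chr2:206213372-206213621, minus strand) encodes a chemerin receptor and starts in sequence called in both libraries. ZNF691 (chr1:42846363-42846612, plus strand), a zinc finger gene, starts in sequence called in control only. FASLG (chr1:172658853-172659102, plus strand), the gene of the death ligand of T cells, and ZFP42 (chr4:187995521-187995770, plus strand), the pluripotency gene also called REX1, start in sequence called in sh1 only. KDM2A (chr11:67119013-67119262, plus strand) starts outside both lists, and the first of its 2 listed promoters is given.
CMKLR2: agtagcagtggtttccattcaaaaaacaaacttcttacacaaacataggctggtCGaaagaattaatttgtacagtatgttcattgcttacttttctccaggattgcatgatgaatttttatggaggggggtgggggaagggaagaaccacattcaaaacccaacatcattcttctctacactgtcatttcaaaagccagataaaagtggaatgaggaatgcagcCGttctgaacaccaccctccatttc
ZNF691: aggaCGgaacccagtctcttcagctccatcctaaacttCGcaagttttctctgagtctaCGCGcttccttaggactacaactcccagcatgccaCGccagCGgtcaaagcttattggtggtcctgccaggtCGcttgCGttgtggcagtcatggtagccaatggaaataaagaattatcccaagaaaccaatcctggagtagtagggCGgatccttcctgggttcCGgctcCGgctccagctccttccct
FASLG: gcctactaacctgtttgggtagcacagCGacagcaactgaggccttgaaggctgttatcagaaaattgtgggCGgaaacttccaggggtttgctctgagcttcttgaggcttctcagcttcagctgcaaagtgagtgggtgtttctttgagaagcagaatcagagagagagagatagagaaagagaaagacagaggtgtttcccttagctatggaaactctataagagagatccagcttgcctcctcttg
ZFP42: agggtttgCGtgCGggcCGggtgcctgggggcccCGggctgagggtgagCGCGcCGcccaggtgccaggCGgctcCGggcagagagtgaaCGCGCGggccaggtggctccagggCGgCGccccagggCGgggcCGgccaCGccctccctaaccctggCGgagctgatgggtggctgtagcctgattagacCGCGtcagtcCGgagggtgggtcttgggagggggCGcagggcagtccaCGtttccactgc
KDM2A: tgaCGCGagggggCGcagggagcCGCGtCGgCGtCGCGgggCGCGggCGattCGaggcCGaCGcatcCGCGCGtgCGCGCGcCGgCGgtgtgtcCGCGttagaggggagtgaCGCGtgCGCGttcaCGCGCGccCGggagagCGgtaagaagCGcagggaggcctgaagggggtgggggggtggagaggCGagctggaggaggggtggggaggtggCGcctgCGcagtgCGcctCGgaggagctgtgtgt
These windows hold 2, 11, 2, 23 and 40 CG, in the order shown. The search was for the letters CG, which read the same on both strands. Over 21156 promoters of 15101 protein-coding genes the median was 17 CG, and 65.8% of promoters held at least 10. The 13 promoters that start in sequence called in both libraries had a median of 3 CG, and 0 of the 13 held 10. The 284 in control-only sequence had a median of 5, and 31.7% held at least 10. The 156 in sh1-only sequence also had a median of 5, and 32.7% held at least 10. Control-only and sh1-only starts thus had the same median, below that of the promoters outside the lists, which was 17. Starts inside regions were rare in each library, at 1.40% of promoters in the control and 0.799% in sh1.

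Most called sequence was in one list and not in the other. The control list covered 98.3 Mb and the sh1 list 91.3 Mb, of which 9.57 Mb was called in both, 88.7 Mb in control only and 81.7 Mb in sh1 only. The shared part was 9.74% of the control's length and 10.5% of the length of sh1. For background, sh1 regions covered 3.18% of all 200 bp bins of these chromosomes and control regions 3.42%. The share of control sequence also called in sh1 was therefore 3.06 times the share of the chromosomes covered by sh1. By number, 2923 of 19017 control regions touched an sh1 region by at least 1 bp (15.4%, exact binomial interval 14.9 to 15.9). From the other side, 2961 of 18865 sh1 regions touched a control region (15.7%, 15.2 to 16.2). Covered length in sh1 was 0.929 times that of the control. It was 1.24 times the control once regions at or below a fold of 1.59, the control median, were dropped from both lists. That cut is set by the control's own folds, and it kept 9508 control and 11520 sh1 regions. With equal numbers, the 10000 highest-fold regions of each list, the ratio was 0.975 and did not reverse.

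Regions that touched seldom had the same borders. Of 2923 pairs of a control region with its best sh1 partner, 14 had identical borders on the 200 bp grid and 1210 overlapped by at least 50% of both regions. The starts differed by a median of 2000 bp and the ends by 2200 bp. Within such pairs the control region was wider in 1506 and the sh1 region in 1347. The fold was higher in sh1 in 1628 pairs (55.7%), with medians of 1.55 in the control and 1.59 in sh1. Across the pairs the folds of the libraries had a Spearman rho of 0.172, a description over regions that each share 1 library.

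Most regions that did not touch the other list lay more than 1 kb from it. The share of all sequence that lies within such distances of a region was not computed, so the gaps are given without a background. The median untouched control region lay 34.4 kb from the nearest sh1 region, and 2.80% of the 16094 lay within 1 kb. For untouched sh1 regions the median gap was 28.8 kb, and 2.85% of the 15904 lay within 1 kb of a control region. Within 50 kb lay 60.2% of the untouched control regions and 67.6% of the untouched sh1 regions.

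The lists resembled each other far more over large windows than base by base. Among windows of 10 kb, 20.3% of those with control sequence also held sh1 sequence, against 9.04% of all windows. At 100 kb the shares were 58.9% and 38.3%, and at 1 Mb 87.7% and 78.3%, so the share of all windows rose as well. The covered length per window had a Pearson r of 0.120 over 287390 windows of 10 kb. It was 0.409 over 28729 windows of 100 kb, 0.775 over 2864 windows of 1 Mb and 0.909 over 278 windows of 10 Mb. All points come from the same pair of libraries and share its depth, so these are descriptions. More of a 1 Mb window was called in the control in 1526 windows and in sh1 in 1012.

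**Figure D1:**
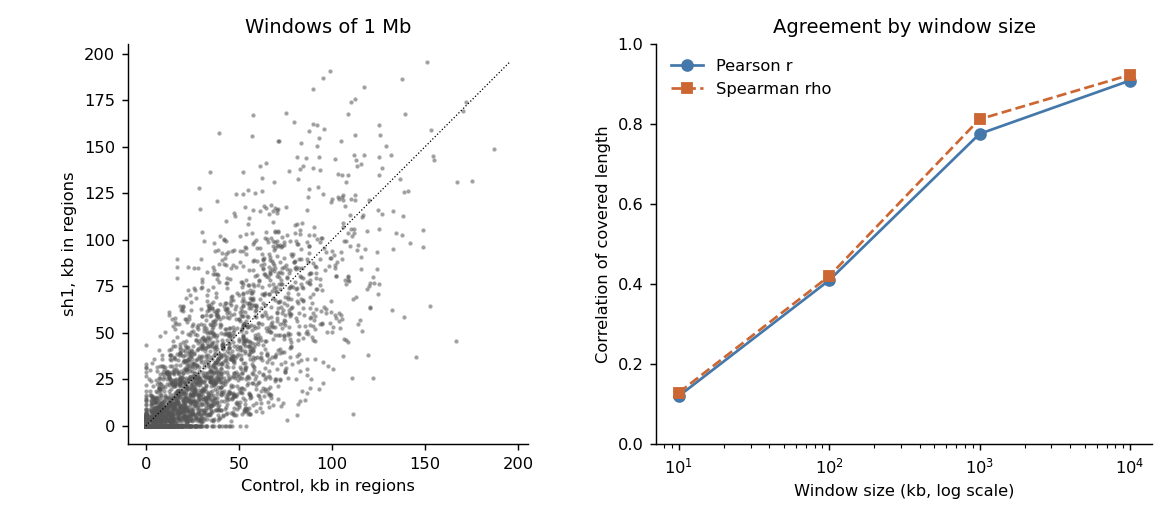
Left, kb in H3K36me2 regions in control (horizontal) and sh1 (vertical) for each of 2864 windows of 1 Mb, with the line of equality dotted. Right, Pearson r and Spearman rho of the covered length between the libraries against window size on a log axis, rising from 0.120 and 0.129 at 10 kb to 0.909 and 0.923 at 10 Mb.

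The windows of 1 Mb with the largest differences were picked after their values were seen, 3 in each direction, and 5 of the 6 overlap long genes. On chromosome 5, 169000001 to 170000000, the control had 166.8 kb and sh1 45.6 kb called. This window holds SLIT3, which encodes a secreted axon guidance ligand, and DOCK2, a Rac activator of blood cells. On chromosome 16, 78000001 to 79000000, in and around the oxidoreductase gene WWOX, the control had 145.2 kb and sh1 37.2 kb. The window at 174000001 to 175000000 of chromosome 5, with the homeobox gene MSX2, the neuronal gene NSG2 and C5orf47, had 111.2 kb in the control and 6.2 kb in sh1. In the opposite direction, the window at 60000001 to 61000000 of chromosome 3, which lies in FHIT, had 39.2 kb in the control and 157.6 kb in sh1. Next to it, 59000001 to 60000000 had 57.6 kb and 167 kb. FHIT and WWOX both span common fragile sites. Their windows were picked from opposite ends of the ranking, so their opposite directions follow from that choice. On chromosome 11, 132000001 to 133000000, with the neural adhesion genes NTM and OPCML, the values were 34.2 kb in the control and 136.2 kb in sh1.

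By chromosome, sh1 had less called sequence than the control on 19 of 22 chromosomes. It had more on chromosomes 5, 12 and 13, with length ratios of 1.04, 1.06 and 1.07. The lowest length ratios were those of chromosomes 19, 22, 17 and 16, all with more protein-coding genes per Mb than the median chromosome (5.76). Chromosome 19, which has the most protein-coding genes per Mb (24.1), had 34 regions in the control and 6 in sh1, and no base in common. Chromosome 22 had 48 and 23 regions and a length ratio of 0.484. Chromosome 17 had 263 and 163 regions (0.620 times, 0.507 to 0.756) and chromosome 16 had 273 and 192 (0.703 times, 0.582 to 0.849). Chromosomes 9, 10 and 11 also had fewer sh1 regions, with ratios of 0.866 (0.780 to 0.963), 0.818 (0.736 to 0.910) and 0.854 (0.769 to 0.948). The interval of the region ratio lay above 1 on chromosomes 5 (1.11, 1.04 to 1.19) and 13 (1.11, 1.01 to 1.22). On the other 13 chromosomes the interval held 1.

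Across the 22 chromosomes the length ratio had a Pearson r of -0.807 and a Spearman rho of -0.610 with protein-coding genes per Mb. Without chromosomes 19 and 17, the farthest from the median gene density, the values were -0.550 and -0.486 over 20 chromosomes. The chromosomes share both libraries, so this is a description. Several large chromosomes were close to equal. Chromosome 2 had 2084 control and 2099 sh1 regions, chromosome 3 had 1850 and 1926, chromosome 4 had 1760 and 1857, and chromosome 6 had 1626 and 1718.

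**Figure D2:**
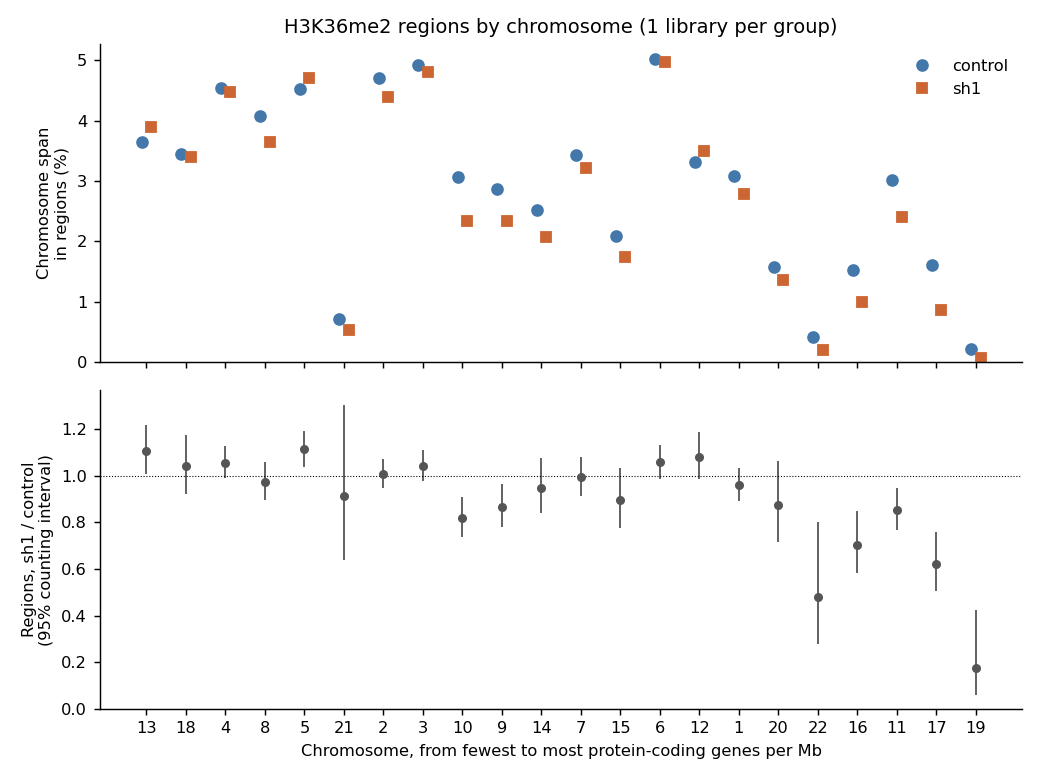
Top, percent of each chromosome's span inside H3K36me2 regions in control (circles) and sh1 (squares), from fewest to most protein-coding genes per Mb. Bottom, sh1 regions divided by control regions with the 95% counting interval as bars, which falls to 0.176 on chromosome 19 and is highest at 1.11 on chromosome 5.

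The sequence called in both libraries followed the coverage of each chromosome. It amounted to 11.7% of control length on chromosome 6, 11.6% on chromosome 5 and 11.2% on chromosomes 2 and 12, all chromosomes with more than 3% of their span called in sh1. It amounted to 4.21% on chromosome 16, 2.20% on chromosome 17, 0.649% on chromosome 22 and 0% on chromosome 19. On 21 of 22 chromosomes the share exceeded the percent of the chromosome called in sh1. Over all 22 the median ratio of these percentages was 2.90. Chromosome 2 held the most of each class, with 1.27 Mb in both, 10.1 Mb in control only and 9.34 Mb in sh1 only.

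By width, sh1 had more narrow and fewer wide regions than the control. Regions under 3 kb numbered 3379 in the control and 4006 in sh1, a ratio of 1.19 (1.13 to 1.24). From 3 to under 6 kb there were 10243 and 10341, a ratio of 1.01 (0.982 to 1.04). From 6 to under 12 kb there were 4718 and 4013, a ratio of 0.851 (0.815 to 0.887). Regions of 12 kb or wider numbered 677 and 505, a ratio of 0.746 (0.663 to 0.838). The median width was 4400 bp in the control and 4200 bp in sh1.

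Wide regions touched the other list more often, and they also held slightly more shared sequence for their length. In the control 9.68% of regions under 3 kb were touched (8.70 to 10.7), 13.5% of those from 3 to 6 kb, 21.8% of those from 6 to 12 kb and 27.3% of those of 12 kb or wider (24.0 to 30.9). In sh1 the shares were 10.5%, 14.1%, 22.7% and 34.7% (30.5 to 39.0). A wider region has more bases that can be touched, so the shared length is the fairer measure. It ran from 8.04% under 3 kb to 11.0% from 6 to 12 kb and 10.6% at 12 kb or wider in the control. In sh1 it ran from 8.75% under 3 kb to 14.0% at 12 kb or wider.

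**Figure D3:**
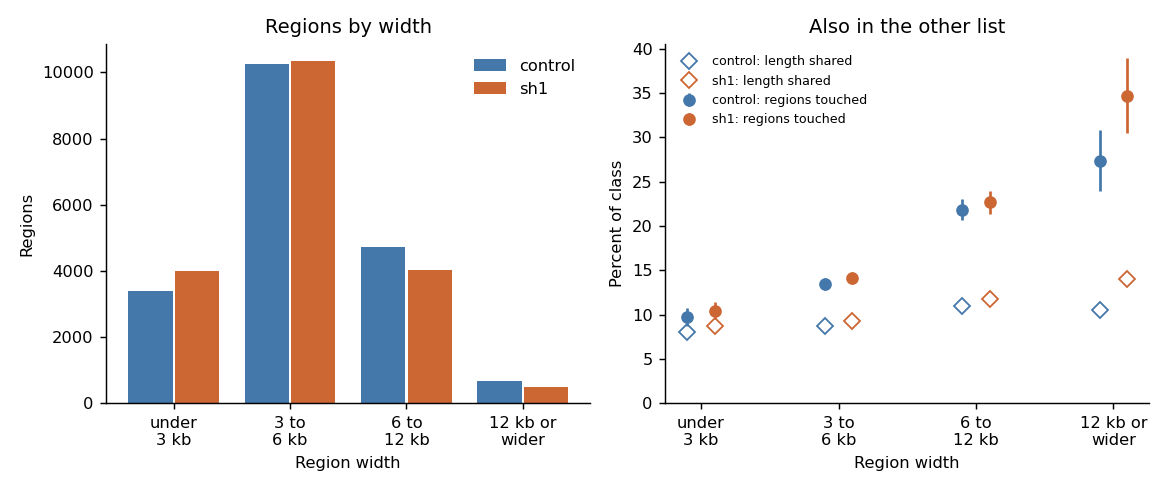
Left, number of H3K36me2 regions per width class in control and sh1. Right, percent of regions touched by the other list (filled circles, 95% exact binomial interval) and percent of length shared with it (open diamonds), which stays between 8.04% and 14.0% while the touched share rises to 34.7%.

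Regions of high fold were touched less often than regions of low fold. With each list split into 4 equal groups by fold, 21.1% of control regions in the lowest group were touched, against 11.7% in the highest. The same shares in sh1 were 22.3% and 12.0%. Low-fold regions were wider, with a median width of 7600 bp in the lowest control group and 3000 bp in the highest. Inside the class of 3 to under 6 kb, the touched share in the control was 14.0% (13.1 to 15.0) for the lower and 12.9% (12.0 to 13.9) for the higher folds. In the class of 6 to under 12 kb it was 21.6% and 22%. Untouched regions had median folds of 1.60 in the control and 1.66 in sh1, and touched regions 1.55 and 1.60. Input depth moved with these classes. Touched regions held a median of 23.8 input reads per kb in the control and 23.3 in sh1, and untouched regions 23.2 and 22.3. The part of input depth in the result was not tested.

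The regions of highest fold were narrow, and some of those named here had bases in both lists. Over all regions, 15.4% of those of the control and 15.7% of those of sh1 touched the other list. On chromosome 1 the control region at 631001 to 631400 had a fold of 755.7, and the sh1 region that holds it, 629801 to 632400, had 6.0. A second sh1 region nearby, 633801 to 634200, had a fold of 1191. Another sh1 region of 200 bp on chromosome 17, 25389801 to 25390000, had a fold of 2596 and lay 2766 kb from any control region. The sh1 region on chromosome 5 at 104365601 to 104367000 had a fold of 5.21, and all of its 1400 bp were also called in the control. In the control, 60.5 was reached on chromosome 5 at 49630801 to 49631600 and 56.9 on chromosome 16 at 46391601 to 46394200, and neither was touched. The median folds were 1.59 in the control and 1.65 in sh1. At the folds of 56.9 and above no read counts could be recovered. Whether reads pile up at these places through mapping was not tested, so such folds are not taken as strong H3K36me2. Under 1 kb wide were 14 control regions, 2 of them touched, and 28 sh1 regions, 0 of them touched.

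The widest regions in 1 library alone lay mostly inside genes. In the control the widest was 30.8 kb on chromosome 15 at 98710001 to 98740800, inside the insulin-like growth factor receptor gene IGF1R. Its fold was 1.18 (1.08 to 1.28, from 1157 IP and 967 input reads). An sh1 region lay 3.8 kb from it, also in IGF1R, with 13.2% of its body called in the control and 4.56% in sh1. The next were 26.0 kb in SH3BP5, 25 kb in FARS2 and 24.4 kb in RAD51B, with folds of 1.22, 1.19 and 1.25 and gaps to sh1 of 82.4, 62.4 and 40.0 kb. In sh1 the widest was 43.4 kb on chromosome 10 at 41872801 to 41916200, far from genes, with a fold of 1.14 (1.1 to 1.19) from 6034 IP and 5218 input reads. Next came 32.0 kb on chromosome 5 at 113043401 to 113075400 in MCC (fold 1.17), which lay 8.0 kb from a control region. A further 31.8 kb lay on chromosome 13 at 98393001 to 98424800 in FARP1 (1.17), a gene of dendrite growth. The last was 31.8 kb on chromosome 2 at 89817601 to 89849400 (1.13), 509918 bp from a protein-coding gene. It held 2051 input reads, against 1011 in the FARP1 region of the same width. The median sh1 region of 12 kb or wider held 392. Input was thus unusually deep in the chromosome 10 and chromosome 2 regions, and how reads map there was not tested.

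The widest stretch called in both libraries was 20.8 kb on chromosome 1 at 94096001 to 94116800 in ABCA4, the retinal transporter gene. It was part of a control region of 29800 bp with a fold of 1.22 and was the whole of an sh1 region with a fold of 1.29. The next lay between genes. They were 15.0 kb on chromosome 5 at 61562001 to 61577000, 15828 bp from ZSWIM6, 14.4 kb on chromosome 3 at 64355201 to 64369600, 87027 bp from PRICKLE2, and 13.6 kb on chromosome 2 at 172269601 to 172283200, 144135 bp from the integrin gene ITGA6.

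Relative to genes, sequence called in both libraries lay more often between genes than sequence called in 1. Bodies of protein-coding genes made up 42.1% of the chromosome span. They held 38.7% of the sequence called in both, 45.5% of control-only and 42.1% of sh1-only sequence. Sequence 50 to 500 kb from a gene made up 24.7% of the span and held 38.7%, 29.6% and 33.6% of the 3 classes. Along 8590 genes of 20 kb or longer whose strand is known, sh1 covered less than the control in each of 5 equal parts of the body. The ratio was lowest in the part at the 3′ end, at 0.801, with 4.06% of its length called in the control and 3.25% in sh1. In the parts before it, from 5′ to 3′, the ratio was 0.897, 0.931, 0.928 and 0.889. These are summed lengths with no error.

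KDM2A peaks of the control cells, from the authors' list for that library, were counted by their midpoint as a readout apart from both lists. They were 211 per Mb in sequence called in both (counting interval 202 to 221), 203 in control-only (200.4 to 206) and 191 in sh1-only sequence (188 to 194), against 166 over the chromosome span, which includes unsequenced gaps. Of the 475699 KDM2A peaks over the span, 14645 had an FDR under 0.05, so most of the counted peaks fail that limit. Among KDM2A peaks with an FDR under 0.05 the densities were 5.33 (3.97 to 7.01), 4.45 (4.02 to 4.91) and 4.50 (4.05 to 4.99), against 5.10 over the span. At that limit control-only and sh1-only sequence lay below the span, and the interval for sequence called in both held the span's value. The H3K36me2 and KDM2A libraries of the control cells come from the same line and condition.

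Over gene bodies, 1855 of 18973 protein-coding genes (9.78%) had called sequence in the control and none in sh1, and 1116 (5.88%) had it in sh1 and none in the control. A further 1990 (10.5%) had called sequence in each list, but the same bases were called in 742 of them (37.3%). The other 14012 genes (73.9%) had none. Called sequence was shorter in sh1 for 2911 genes and longer for 2034. Of the summed body length, 3.64% was called in the control and 3.14% in sh1.

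The class of a gene went with its length. Of 8398 genes under 20 kb, 2.69% were called in control only, 1.5% in sh1 only and 0.238% in both. From 20 to under 100 kb the shares were 14.0%, 8.42% and 5.73% of 7366 genes. From 100 to under 300 kb they were 21.4%, 13.3% and 39.0% of 2470 genes. Of the 739 genes of 300 kb or longer, 9.47% were control only, 5.68% sh1 only and 79.0% in both. The percent of body length called was 1.32% in the control and 0.623% in sh1 under 20 kb, and 4.56% and 4.60% at 300 kb or longer. From 100 to under 300 kb it was 4.08% and 3.37%, so sh1 coverage was the lower in each class except the longest genes.

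**Figure D4:**
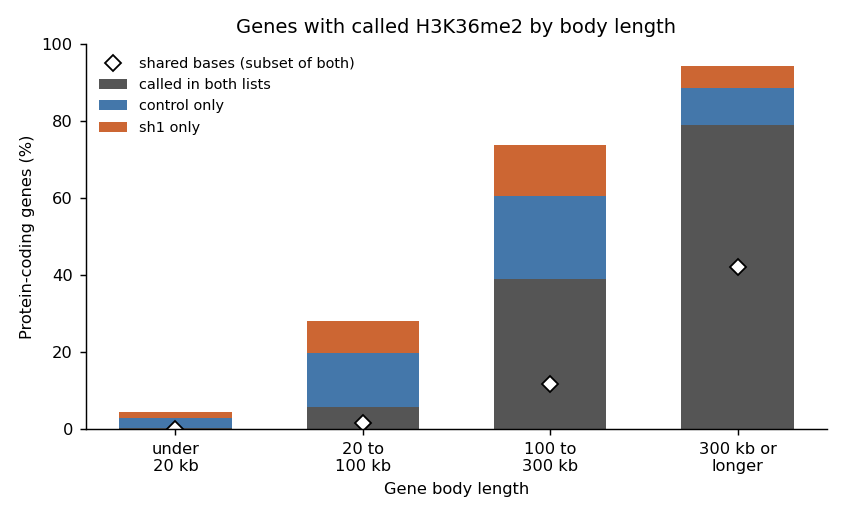
Percent of protein-coding genes called in both lists (grey), in control only (blue) and in sh1 only (orange), by gene body length, with diamonds for genes in which the same bases were called. Grey rises from 0.238% under 20 kb to 79.0% at 300 kb or longer.

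Genes with most of the body called in the control and none in sh1 were of varied function. By rule these were the 8 of at least 5 kb with the largest share. ZNF691 (chromosome 1, 42846613 to 42852477) was covered over 100% by a control region of 270 IP and 198 input reads (fold 1.34, 1.11 to 1.62), and the nearest sh1 region lay 37.4 kb away. The gap was 38.2 kb for SLC35C1, the GDP-fucose transporter gene (99.8% covered), 71.7 kb for FAM50B (93.8%), 130 kb for KLHL38 (91.9%), 253 kb for TBATA (91.7%) and 20.4 kb for GCSAM, a germinal centre gene (82.6%). C1QTNF9B (92.2%) and the matrix metalloproteinase gene MMP7 (81.0%) had sh1 regions closer, at 3.50 and 11.3 kb. The folds at these 8 genes lay between 1.24 and 1.36.

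The 8 genes with the largest share called in sh1 and none in the control were also of varied function. FASLG (chromosome 1, 172659103 to 172666876) was covered over 100% by an sh1 region with 303 IP and 199 input reads (fold 1.51, 1.26 to 1.81), 12.3 kb from the nearest control region. SMIM43 (chromosome 4, 121758930 to 121765433) was covered over 89.2%, with a gap of 22 kb. AGR2, a protein disulfide isomerase gene of secretory epithelia, was covered over 65.2%, TMEM14A over 63.9% and WDR53 over 61.2%. TBC1D7, a subunit of the TSC complex, was covered over 59.4%, the orphan receptor gene GPR75 over 56.2% and the chemokine gene XCL1 over 54.9%. GPR75 had the largest gap to a control region, 118 kb, and TBC1D7 the smallest, 9.26 kb. Their folds lay between 1.27 and 1.61.

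Sharing was highest in TMPRSS5 for genes of at least 5 kb, with 68.2% of the body called over the same bases. The gene, on chromosome 11 at 113687550 to 113706308, encodes the serine protease spinesin. The control list took in 100% of it and the sh1 list 68.2%, with folds of 1.29 and 1.28. In BCL2L15 the values were 50.2% in the control and 57.6% in sh1, with 50.2% in common. PLA1A, a phospholipase gene, was covered over 62.7% and 62.4%, with 34.5% in common. In ZNF474 a control region and an sh1 region began at the same base, 122132601 on chromosome 5, with folds of 1.55 and 2.07 (1.62 to 2.67 in sh1). C3orf85 had 28.6% in common, DAPL1 27.1% and TRIM77 26.4%. DUX4 had 28.0% in common with folds of 2.91 and 2.70, but it belongs to a repeat array whose near-identical copies make its reads uncertain.

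**Figure D5:**
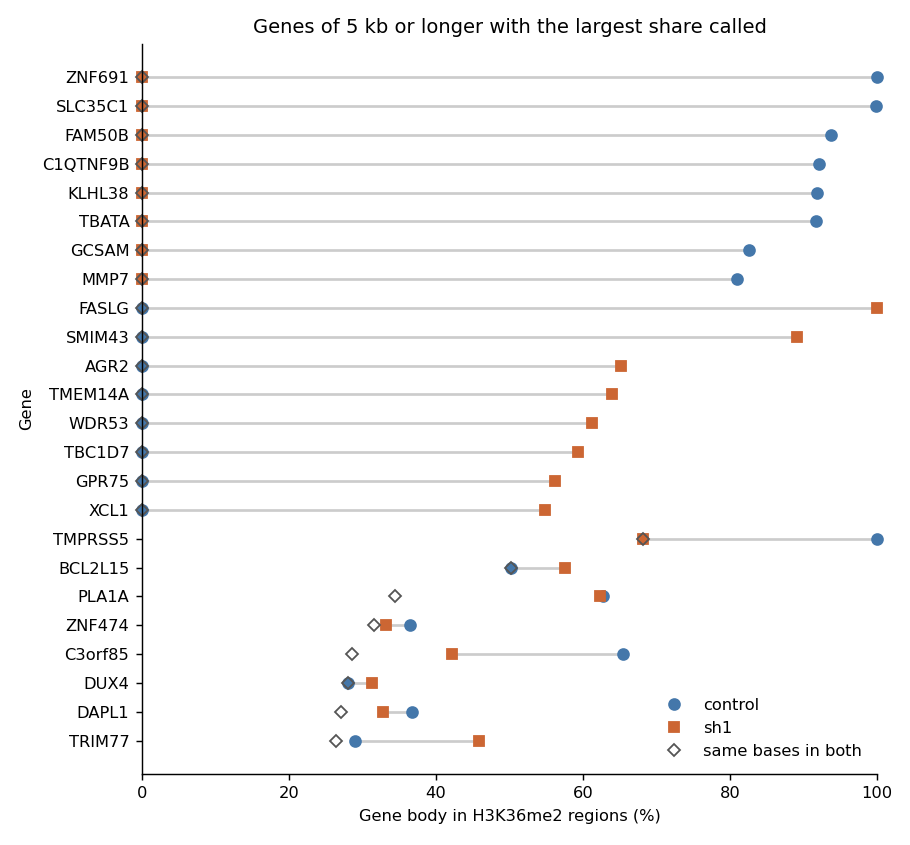
Percent of the gene body inside H3K36me2 regions in control (circles) and sh1 (squares), and over the same bases in both (diamonds), for 24 genes, 8 per class. Points at 0 are bodies with no called sequence in that list; the control-only genes reach 81.0% to 100%.

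MAPK signalling is the pathway in the study's title, a cascade of kinases from RAS through RAF, MEK and ERK, with parallel JNK and p38 arms. Of 69 MAPK genes, 12 were called in control only (17.4%), 7 in sh1 only (10.1%) and 16 in both (23.2%), against 9.78%, 5.88% and 10.5% of all genes. Their median body was 76.7 kb, against 24.8 kb for all genes, and the class of 20 to under 100 kb had 14.0%, 8.42% and 5.73%. The MAPK genes called in both, all but RRAS2, were longer than 100 kb. Among all genes from 100 to under 300 kb, 21.4%, 13.3% and 39.0% fell in these classes. Length was not adjusted for. Of the 16 called in both, 2 had the same bases called, namely the JNK3 gene MAPK10 (7.37% in the control, 9.90% in sh1, 2.06% in common) and MAPK4, an atypical MAP kinase gene (9.06%, 3.02% and 0.929%). SPRY4, a feedback inhibitor of receptor tyrosine kinases (chromosome 5, 142310430 to 142325021), was covered over 76.6% by 1 control region with a fold of 1.26 (1.11 to 1.44). The nearest sh1 region was 126 kb away. RASGRP1, a RAS activator, and MAPKAPK3, a p38 target kinase, each had 16.4% of the body called in the control and 0% in sh1. In sh1 only were MAPKAPK2, the paralogue of MAPKAPK3, with 16.6%, the ETS factor gene ELK3 with 9.81% and the JNK phosphatase gene DUSP16 with 9.38%. A few kinases of the cascade are given here, picked after their values were seen. The JNK genes MAPK8 (2.56%) and MAPK9 (6.79%) had control sequence alone, and the RAF gene BRAF had 1.61% in the control and 4.16% in sh1. Called sequence was shorter in sh1 for 20 of the 69 genes and longer for 15, and all 69 bodies together had 4.60% called in the control and 3.42% in sh1, against 3.64% and 3.14% for all genes.

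Neurogenesis and neuron differentiation genes, named in the study's design, were called in control only for 4 of 41 (9.76%), in sh1 only for 5 (12.2%) and in both for 7 (17.1%), against 9.78%, 5.88% and 10.5% of all genes. The control-only genes with the largest share were ELAVL4, a neuronal RNA-binding gene (6.16%), POU3F3 (4.30%) and BCL11A (3.09%), both neural transcription factor genes. In sh1 only were the neural transcription factor genes LHX8 (5.63%), CUX2 (1.45%) and EBF2 (1.08%). The same bases were called in EBF1, with 8.96% in the control, 15.7% in sh1 and 3.51% in common, in the dendrite protein gene MAP2, with 5.61%, 2.32% and 1.55%, and in CUX1, with 4.02%, 0.727% and 0.598%. Neural progenitor markers were control only for 3 of 23 (13.0%), sh1 only for 1 (4.35%) and in both for 3 (13.0%). The same bases were called in 0. These shares were near those of all genes, but the median body was 10.6 kb, against 24.8 kb for all genes. Of all genes under 20 kb, 2.69%, 1.5% and 0.238% fell in these classes, below the shares of the list. The called markers were longer, from 34.9 kb (FABP7) to 446 kb (MSI2), and length was not adjusted for. The radial glia gene FABP7 was covered over 21.8%, MSI2 over 10.3% and ZBTB16 over 2.03% in the control alone, and CDH2, the N-cadherin gene, over 5.49% in sh1 alone.

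Axon guidance and synapse genes are long, with a median body of 380.5 kb, and 23 of 36 were called in both lists (63.9%), against 79.0% of all genes of 300 kb or longer. The same bases were called in 11, among them SEMA6D (8.95% in the control, 10.6% in sh1, 1.66% in common), UNC5D (5.85%, 4.85% and 1.46%) and UNC5C (8.44%, 17.8% and 1.35%). The control-only genes were 5 (13.9% of the list), led by the ephrin receptor gene EPHA4 (14.8% of its body). The sh1-only genes were 3 (8.33% of the list), led by the ephrin gene EFNB2 (22.2% of its body). These classes held 9.78% and 5.88% of all genes, and 9.47% and 5.68% of genes of 300 kb or longer. Growth factor genes were control only for 5 of 28 (17.9%), sh1 only for 3 (10.7%) and in both for 12 (42.9%). Their median body was 103 kb, and of all genes from 100 to under 300 kb 21.4%, 13.3% and 39.0% fell in these classes. The neurotrophin gene NTF3 (14.6%) and FGF2 (11.7%) were called in the control alone, and IGF1 (15.8%), FGF1 (10.2%) and NTRK3 (0.605%) in sh1 alone. In ERBB4 the shares were 6.71% in the control and 3.87% in sh1, with 0.344% in common.

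Among Wnt, Notch and Hedgehog genes 4 of 34 were control only (11.8%), 3 sh1 only (8.82%) and 7 in both (20.6%), against 9.78%, 5.88% and 10.5% of all genes, whose bodies are shorter at the median (24.8 kb, against 55.5 kb). The β-catenin gene CTNNB1 (10.3%), TCF7L2 (7.45%) and AXIN1 (5.21%) had control sequence alone, and the Wnt receptor genes LRP6 (6.09%) and FZD3 (5.00%) and NOTCH2 (1.39%) had sh1 sequence alone. APC had 12.0% in the control, 6.78% in sh1 and 3.32% in common. Of these 34 genes, 3 had the same bases called.

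Genes of enzymes and readers of H3K36 methylation, in any of its forms, were control only for 2 of 21 (9.52%), sh1 only for 1 (4.76%) and in both for 4 (19.0%). The same bases were called in 0. The shares of all genes were 9.78%, 5.88% and 10.5%, so control-only and sh1-only calls stood just under them. The median body of this list was 111 kb, against 24.8 kb for all genes. Of all genes from 100 to under 300 kb, 21.4%, 13.3% and 39.0% fell in these classes. The list lay below those shares, with few genes per class. DNMT3A and DNMT3B, de novo DNA methyltransferase genes, were covered over 14.6% and 10.6% in the control alone, and the reader gene ZMYND11 over 3.69% in sh1 alone. The region in DNMT3A had 631 IP and 494 input reads, a fold of 1.26 (1.12 to 1.42), and the nearest sh1 region lay 111 kb from the gene. Polycomb genes were control only for 2 of 27, sh1 only for 1 and in both for 5. These are 7.41%, 3.70% and 18.5% of the list, the first and second of them under the shares of all genes. The median Polycomb body was 44.8 kb, and genes of 20 to under 100 kb had 14.0%, 8.42% and 5.73%. Of the Polycomb genes called in both, JARID2, AEBP2 and PCGF5 were longer than 100 kb, and RYBP and YAF2 were shorter. Length was not adjusted for. PCGF3 (9.03%) and RNF2 (7.01%) had control sequence alone and PHC2 (2.61%) sh1 sequence alone. JARID2, a cofactor of the methylating complex, had 13.9% in the control and 2.32% in sh1, with 0.652% in common. YAF2 had 2.22% in common.

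Lists of other lineages were mostly uncalled, as were 73.9% of all protein-coding genes. Of all genes 9.78% were control only, 5.88% sh1 only and 10.5% in both. Uncalled were 12 of 16 neural crest genes and 14 of 20 astrocyte and oligodendrocyte genes, near the share of all genes. Neural progenitor markers were much the same, with 16 of 23 uncalled. Of 16 neural crest genes 3 were control only (18.8% of the list), namely TFAP2B (23.9%), ETS1 (18.9%) and TYR (2.71%). None was sh1 only, and 1, MITF, was in both. Pluripotency genes had 0 of 22 in control only and 2 in sh1 only (9.09% of the list), ZFP42 with 40.4% (fold 1.46, 1.17 to 1.85) and LEFTY2 with 34.6%. Of 30 mesoderm and endoderm genes, 29 were uncalled. Astrocyte and oligodendrocyte genes were control only for 2 of 20 (10% of the list), the myelin gene MBP (12.8%) and CSPG4 (9.91%). They were in both for 4 (20%), with no base in common. Of those 4, the glial factor genes NFIA (4.25% in the control, 13.6% in sh1) and NFIB (3.73% and 9.51%) and the glutamate transporter gene SLC1A3 (6.10% and 13.7%) had more sh1 sequence, and SLC1A2 (15.0% and 3.90%) had less. The summed body of this list had 5.60% called in the control and 7.31% in sh1. Among 29 blood, liver and muscle genes TTR (50.7%) was the 1 called in sh1 only, and PTPRC had 2.19% in the control, 6.40% in sh1 and 2.19% in common. The summed body of that list had 1.67% called in the control and 2.96% in sh1. None of 39 HOX genes was called in either list, and their median body was 3.79 kb. Of 388 olfactory receptor genes 3 were control only (0.773%) and 9 sh1 only (2.32%), with a median body of 3.04 kb. OR5P2 and OR8D2 were covered over 100% in sh1 alone and OR2A2 over 56.3% in the control alone. Such receptors belong to families with near-identical copies, where reads can be split. Of 80 ribosomal protein genes RPS29 (13.0%, sh1 only) was the 1 called. These lists also hold short genes, and 95.6% of all genes under 20 kb were uncalled.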

How the data were processed

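The members, lists and comparisons were chosen with earlier results of these data known. Per the submitters' processing notes, Bowtie 1.1.2, MACS2, SICER, hg38 and GRCh38 were used, in roles not given in the sources used here. Per the file headers, each deposited region has a fold enrichment, which is a ratio of IP to background. Its deposited p-value and FDR are the caller's, and every FDR was under 1e-05. The deposited score (100 times the log2 of the fold, capped at 1000) and the deposited pileup signal of KDM2A peaks were not used further. Starts counted from 0 were shifted to count from 1.

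IP and input read counts were recovered from each fold and p-value under a Poisson model. All 19686 control and 19498 sh1 regions with a usable p-value gave whole numbers, within 1e-06 of the log p-value and 0.01 of an input read. For 5 control and 3 sh1 regions the p-value was too small. Total library depth is unknown.

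Lists were intersected base by base in Python 3.11.15 with numpy 2.4.6, pandas 2.3.3 and scipy 1.17.1, tested on simulated data. Positions of 18973 protein-coding genes and the promoter sequences (15101 genes matched, on 21 chromosomes, with those of chromosome 8 not used here) are from RefSeq, GRCh38.p14. A chromosome's span reaches to its last gene, region or peak (2874 Mb in all) and includes assembly gaps. Named genes were KDM2A, the 8 genes of at least 5 kb with the largest share in each class, and up to 3 per class from each of 16 lists. Regions named were the 4 widest per class. A few genes within this rule are not reported here. Shares have exact binomial (Clopper-Pearson) intervals and ratios of counts conditional exact ones, and PCR reads are not independent molecules. The sh4 list was not used here, and inputs entered only through the deposited folds and p-values. Alternatives changed the fold limit, number, width and extension of regions, the overlap, the share of a body and the gene set.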

Additional observations from a re-analysis of the deposited data

How the results depend on the processing

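No paired analysis was possible because each group holds 1 library. Dropping regions at or below a fold of 1.59, the control median (which left 9508 in the control and 11520 in sh1), turned the direction of the covered length, from 0.929 to 1.24 times the control. It lowered the percent of control length also called in sh1 from 9.74% to 4.47%, the touched control regions from 15.4% to 6.93%, the touched sh1 regions from 15.7% to 5.76% and the genes called in both from 1990 to 1132. With the 10000 highest-fold regions of each list these 5 values were 0.975, 3.78%, 5.95%, 6.01% and 1101. Both settings leave fewer and mostly narrower regions, so less of the chromosomes is covered and less overlap is to be expected. The share of the chromosomes covered is not given for them, so these falls do not show poorer agreement of high-fold regions. With regions of at least 3 kb the length ratio was 0.910, the shared control length 9.10% and the touched control regions 14.4%. With every region extended by 1 kb the shared control length was 12.1%, the touched control regions 19.7% and the touched sh1 regions 20.2%. Requiring 50% of a region to be covered left 9.20% of control and 9.75% of sh1 regions. Requiring 10% of a gene body left 1044 control-only, 587 sh1-only and 233 shared genes, and all annotated genes gave 4122, 3042 and 3342. The causes were not tested. Control-only genes outnumbered sh1-only genes in each of these settings, by as little as 1249 to 1167 above the fold limit. Depth limits single regions, since a median region's fold had an interval of 1.25 to 2.10 in the control.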

Other observations

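Of 17525 long non-coding RNA genes, whose median length was 9.12 kb, 1621 (9.25%) were called in control only, 1361 (7.77%) in sh1 only and 1267 (7.23%) in both. Of protein-coding genes, whose median length was 24.8 kb, these were 9.78%, 5.88% and 10.5%, and the difference in length was not adjusted for. The number called in sh1 was 0.910 times that in the control, against 0.808 times for protein-coding genes. Pseudogenes were called in control only for 520 of 14160 (3.67%) and in sh1 only for 463 (3.27%), a ratio of all called genes of 0.901. Among 1793 microRNA genes 35 were control only, 33 sh1 only and 5 in both. Non-coding genes that lie inside protein-coding bodies share their regions, so these counts are not independent.

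Chromosome X, which was left out of the comparison, had 674 control and 635 sh1 regions, a ratio of 0.942 (0.844 to 1.05). They covered 3.46 Mb and 2.93 Mb, and 0.267 Mb was called in both, 7.71% of the control's length. Of the control regions 77 were touched (11.4%, exact binomial interval 9.12 to 14.1), and 1.88% of the chromosome's span was called in sh1.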
